A study of Homo sapiens with 9 samples.

Results

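The mitochondrial ribosomal protein genes are the nuclear genes whose symbols are MRPL or MRPS followed by a number and at most 1 letter. The count tables listed 77 of them among 19918 gene symbols, 50 of the large subunit, 26 of the small subunit and *MRPS36*. They were measured by RNA-seq in 9 libraries of VCaP, an epithelial prostate cancer cell line. Cells were reverse-transfected with 100 pmol siRNA using RNAiMAX and harvested after 72 h. The si025 and si033 groups carried the label *IGF1R-AS1* knockdown, and both siRNAs were designed against exon 1 of the lncRNA *IGF1R-AS1*. The control group carried the genotype label WT, and its labels do not name an siRNA. Each group had 3 libraries, which the study calls biological replicates; the labels do not name their cultures, and *p*-values measure the spread between these libraries. The comparisons asked how the level of each gene moved when the lncRNA was targeted. The lncRNA itself was not analysed here, so its loss was not measured in these libraries.

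Mammalian mitochondria have their own ribosome, which translates the few proteins that mitochondrial DNA encodes, all of them membrane subunits of the oxidative phosphorylation complexes. Its RNAs come from mitochondrial DNA, but every one of its proteins is encoded in the nucleus, made on cytosolic ribosomes and imported. Some of these proteins have counterparts in bacterial ribosomes, and others are specific to mitochondria. Prostate epithelium is known for an unusual mitochondrial metabolism in which citrate is secreted, a feature that prostate tumours lose.

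Library totals ran from 11649811 to 28492259 counts, and the mitochondrial ribosomal protein genes took 0.444% to 0.515% of them. Prostate epithelial markers were detected in every library, with *KLK3* at 11.9 to 42.1 CPM (counts scaled to library size) and *KLK2* at 1525 to 3689.9 CPM. Of 4 markers of other cells, *PTPRC*, *PECAM1* and *VIM* had 5 counts or fewer in every library and *COL1A1* stayed at or under 3.80 CPM. In bulk RNA, a lower level in every cell and fewer cells holding the transcript cannot be told apart.

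Of the 77 genes, 75 had enough counts to be tested in a fit over 12810 genes. The other 2 had almost no counts in these tables. Why was not tested, so these counts do not show that their transcripts were absent. *MRPS18B* had 0 to 1 counts per library and *MRPL45* 0 to 4. Levels between genes were compared per length, as RPKM, which divides CPM by exon length in kilobases. In control, the middle 50% of the 75 genes lay between 20.8 and 59.4 RPKM, a 2.85-fold range, around a median of 38.5 RPKM. Over all 12810 genes tested, the middle 50% spanned 1.88 to 20.2 RPKM, a 10.7-fold range, around a median of 7.28 RPKM. The large subunit genes had a median of 39.4 RPKM and the small subunit genes one of 33.9 RPKM.

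The gene with the highest level was *MRPL51*, a mitochondria-specific large subunit protein, at 183 ± 5.23 RPKM (SD, n = 3) in control. It was followed by *MRPL12* at 154 ± 4.58 RPKM, *MRPL3* at 135 ± 1.16 RPKM and *MRPL49* at 122 ± 6.66 RPKM. *MRPL12* encodes the stalk protein of the large subunit and *MRPL3* a core protein shared with bacteria. These 4 neighbours in rank were separated by more than their SD. At the low end stood *MRPL36* at 6.27 ± 0.330 RPKM, *MRPL55* at 4.36 ± 0.522 RPKM, *MRPS24* at 2.70 ± 0.400 RPKM and *MRPL23* at 0.398 ± 0.108 RPKM. *MRPS24* and *MRPL23* rested on few reads, with 12 to 42 and 12 to 37 counts per library. *MRPS24* shared 87.1% of its 696 exon bases with a read-through transcript on its own strand, *URGCP-MRPS24*, so its count is uncertain. *MRPS6* shared 22.5% of its exon bases with *SLC5A3*, and no other gene of the family shared exon bases on its strand.

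**Figure D1:**
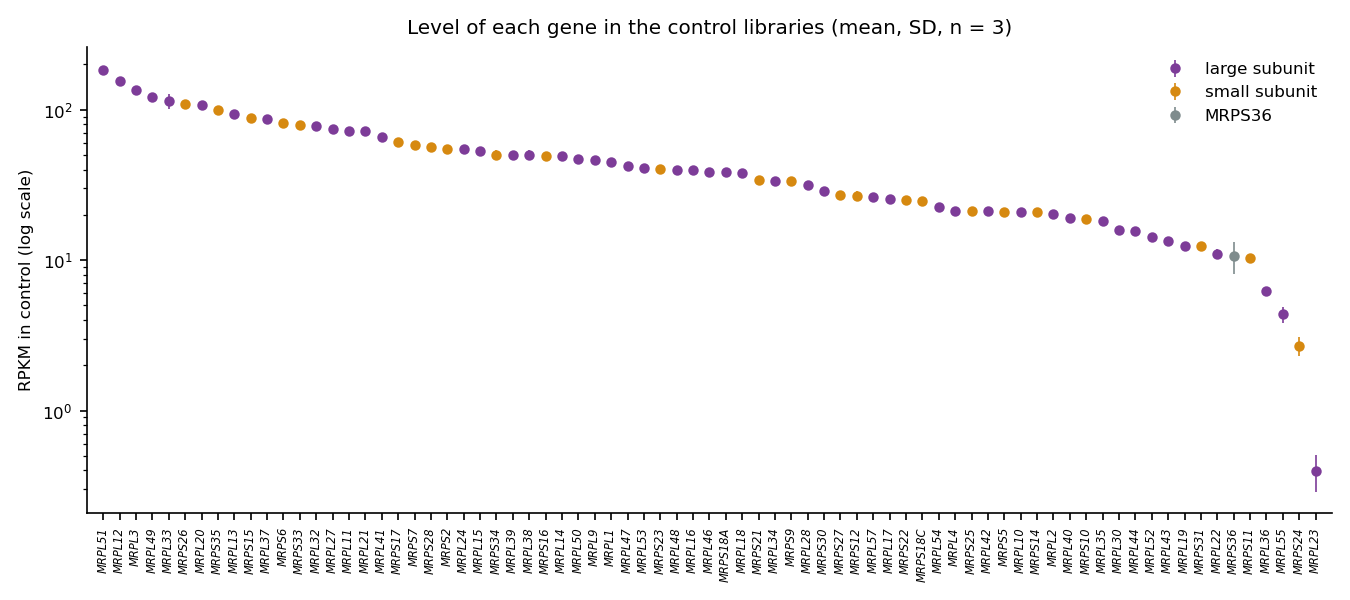
Level of the 75 tested genes in the control libraries, in RPKM on a log axis, ordered from high to low; points are means, bars the SD over 3 libraries, and colours the subunit. Most genes sit between 10 and 200 RPKM, with *MRPL36*, *MRPL55*, *MRPS24* and *MRPL23* below.

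With si025, most mitochondrial ribosomal protein genes fell by a small amount. Tested with edgeR's quasi-likelihood test at an adjusted *p* under 0.05, 47 of the 75 were lower and 8 higher than in control, and 20 did not pass. Over all 12810 genes, 61.7% passed, 28.8% as lower and 32.9% as higher. Correcting for gene length and GC content turned that split to 5053 lower and 3762 higher over all genes, and left the family at 49 lower and 10 higher. The median log2 fold change of the 75 was -0.20, against 0.02 over all genes tested, and their middle 50% ran from -0.30 to -0.08. The 3 si025 libraries lay wholly below the 3 control libraries for 48 of the 75 genes and wholly above for 7, where 30.7% of all genes were wholly below and 35.0% wholly above.

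With si033 the family again leaned lower, with smaller changes. In this comparison 33 of the 75 genes were called lower and 7 higher, and 35 did not pass. Of all genes, 54.8% passed, 27.8% as lower and 26.9% as higher. Scaled by library totals alone, all genes split into 2888 lower and 4211 higher, and the family into 24 lower and 9 higher. The median of the 75 was -0.13 on the log2 scale, against 0.00 over all genes. The si033 libraries lay wholly below control for 33 genes and wholly above for 8, with 30.2% and 29.3% of all genes doing so. The comparisons with si025 and si033 used the same 3 control libraries, so their values stand side by side and not as separate evidence.

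Summed over the 75 genes, the control libraries held 5192, 5267 and 5309 CPM. The si025 libraries held 4383, 4760 and 4537 CPM, and the si033 libraries 4976, 5039.7 and 4809.8 CPM. In this sum each siRNA library was below each control library. The median log2 CPM over the 75 genes was 5.82 to 5.84 in control, 5.68, 5.84 and 5.76 in si025 and 5.80, 5.81 and 5.73 in si033, so by that measure si025 library 2 was not below control. That library also stood apart from its group over all genes, with a chi-square per gene of 5.05 and 4.38 against the other si025 libraries, which differed from each other by 2.27. Without it, 54 genes of the family were called lower and 4 higher than control with si025. Large subunit genes summed to 3426 ± 38.0 CPM (SD, n = 3) in control, 3007 ± 134 in si025 and 3219.98 ± 94.5 in si033. Small subunit genes summed to 1816 ± 29.02 CPM in control, 1540.5 ± 53.1 in si025 and 1711 ± 30.0 in si033. The ratio of these sums was 1.89 ± 0.0220 in control, 1.95 ± 0.0199 in si025 and 1.88 ± 0.0353 in si033. The ratio in si025 ran from 1.94 to 1.97, above the 1.87 to 1.91 of control, while that in si033 overlapped control.

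**Figure D2:**
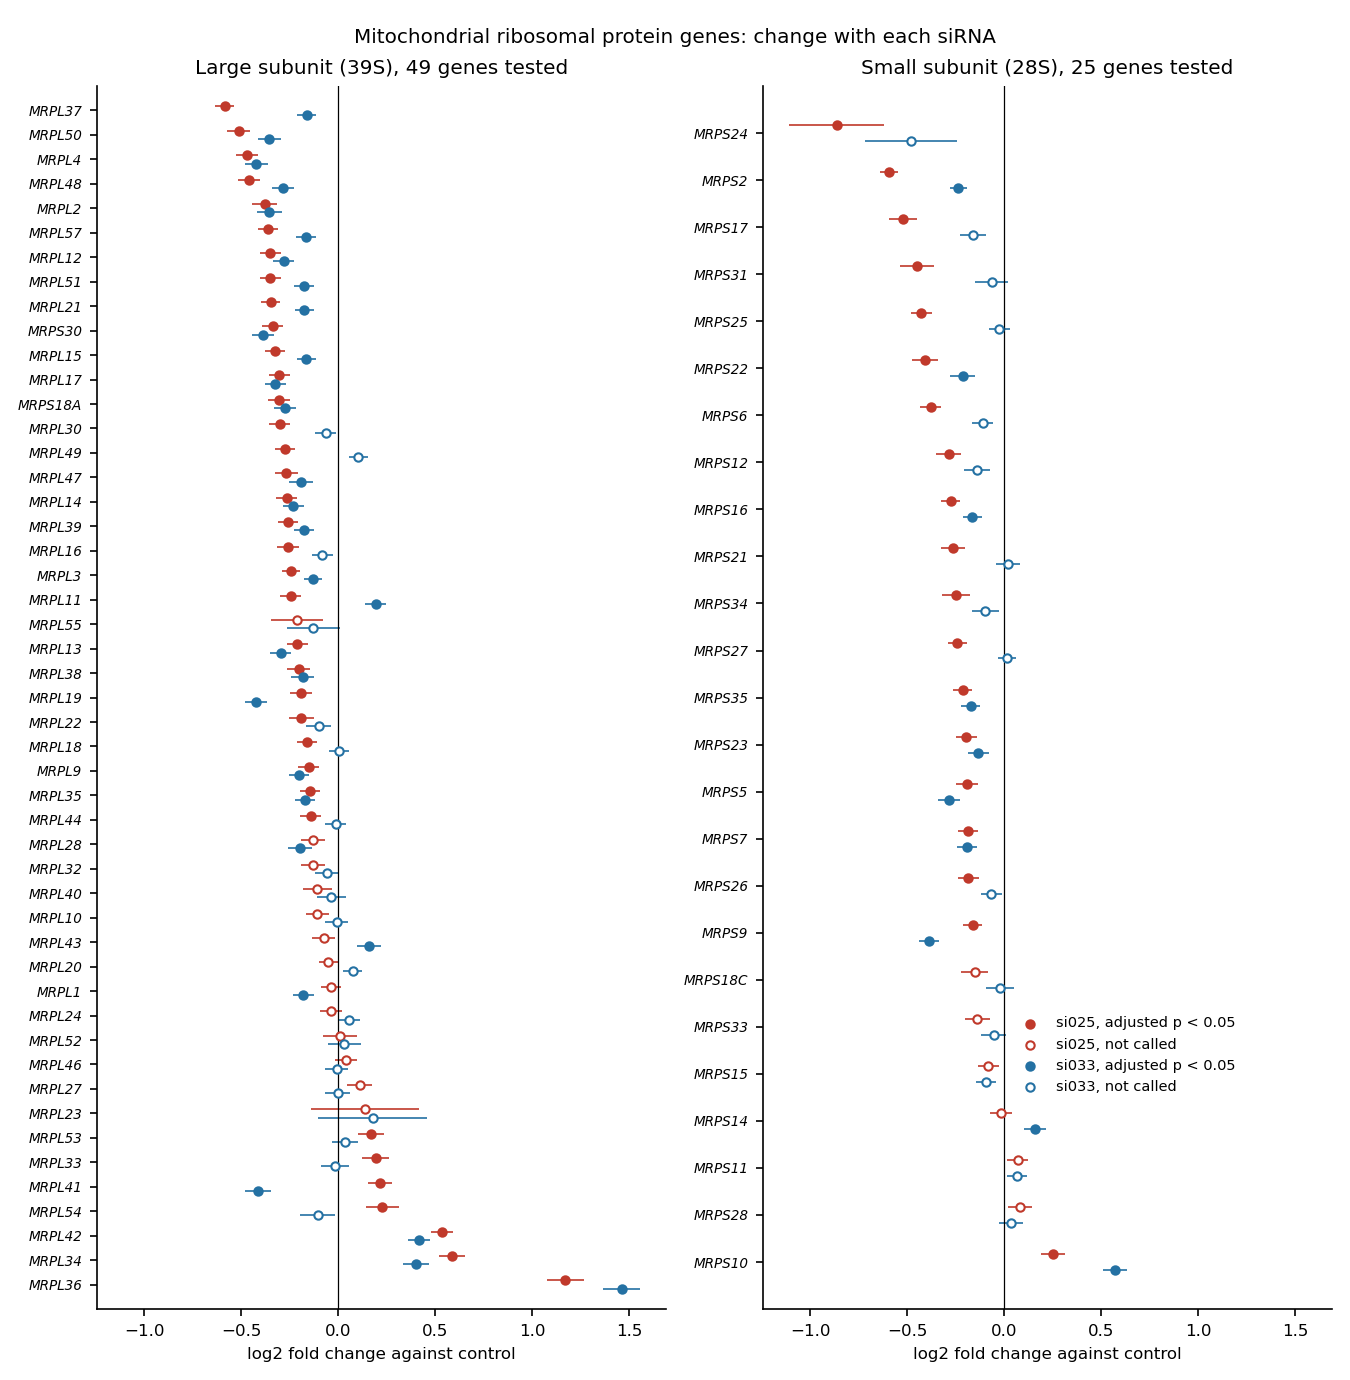
Log2 fold change against control of each tested large subunit gene (left) and small subunit gene (right), red for si025 and blue for si033, with bars of 1 standard error; filled points had an adjusted *p* under 0.05. Most points lie left of 0, and *MRPL36*, *MRPL34*, *MRPL42* and *MRPS10* lie right of 0 with each siRNA.

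*MRPL36*, the counterpart of a small zinc-binding bacterial protein in the large subunit, went against the family. That was known when the family was chosen, so the values below describe it and are no separate evidence. It lies at chr5:1798385-1801432 on the minus strand (hg38). Its level was 8.03, 7.25 and 7.49 CPM in the control libraries. It was 17.9, 18.4 and 15.1 CPM with si025, and 22.0, 21.3 and 19.7 CPM with si033. All 6 siRNA libraries were above all 3 control libraries. The log2 fold change was 1.17 ± 0.10 (SE; edgeR adjusted *p* = 3.91e-10) with si025 and 1.46 ± 0.10 (adjusted *p* = 9.28e-12) with si033. It was the 1 gene of the 75 called with a change of at least 2-fold, in either comparison with control. Between the siRNAs it was lower with si025, by -0.29 ± 0.08 on the log2 scale (adjusted *p* = 0.00385), a difference that missed the threshold without si025 library 3 (adjusted *p* = 0.0612). Without *MRPL36*, the median of the other 74 genes was -0.20 with si025 and -0.13 with si033.

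The 3′ UTR of *MRPL36* also held a short word that few genes of the family had. The oligonucleotide list of the study gives a negative control siRNA, and 2 numbered siRNAs against *IGF1R-AS1*. The sources used here do not say which number is si025 or si033. They do not say which strand of each duplex is listed, so both strands were read as guides. A guide strand can repress transcripts whose 3′ UTR matches its bases 2 to 8, its seed. The 3 listed strands are printed because the matches below are read from them, with capitals on the bases that pair with the seed of the opposite strand.
siRNA negative control: uagcgacuaaaCACAUCAa
IGF1R-AS1-siRNA-1#: agaaagcacugAAGACCUauu
IGF1R-AS1-siRNA-2#: ccguauugcucAGUGGAAauu

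The word CACATCA, which pairs with that seed of the negative control, stood in the 3′ UTR of 2 of the 75 genes, *MRPL36* and *MRPL42*. Both were higher with each siRNA. The long 3′ UTR model of *MRPL42* also held words of both numbered siRNAs, given below. GENCODE 44 models on hg38 gave 12083 of the 12810 tested genes a 3′ UTR, and 11.7% of those held the word. The 1417 genes with it had a median log2 fold change of 0.16 with si025 and 0.13 with si033, and the 10666 without it 0.01 and -0.01. Genes with and without the word were not matched for 3′ UTR length or GC content, and the difference was not tested. With si025, 701 of the 1417 were called higher and 283 lower; with si033 the counts were 606 and 282. The sites in the family are shown with the word in capitals.
MRPL36, base 80 of the 3′ UTR: gaaggaattatCACATCAaggagtcaggg
MRPL42, base 3908: ttacagtctgtCACATCAtgccctaattc
MRPL42, base 8722: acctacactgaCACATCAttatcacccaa
MRPL42, base 9476: gacagctcatcCACATCAcatttatttta

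The site of *MRPL36* lay inside the exons that were counted. Those of *MRPL42* lay in the far part of a 14993-base 3′ UTR model, outside the counted exons, so these tables do not show that VCaP transcripts reach them. The median 3′ UTR was 464 bases in the family and 1376 bases over all genes tested. A search of the whole transcript in place of the 3′ UTR found the word in 7 of the 75 genes. Of these, 3 were called higher and 3 lower with si025, and 3 higher and 1 lower with si033. Over all genes, 2989 held it there, with 1279 called higher and 686 lower with si025, and 1128 and 692 with si033. A 6-base match, ACATCA, stood in the 3′ UTR of 8 of the 75, with medians of -0.17 with si025 and -0.09 with si033. Of the 8, 2 were called higher and 5 lower with si025, and 3 each way with si033. Over all genes, 3896 held that match, with 1523 called higher and 988 lower with si025, and 1352 and 1023 with si033. The other strand of the negative control gave the word AGTCGCT, which no 3′ UTR of the 75 held, against 1.82% of all genes. Whether the word has a part in the level of *MRPL36* was not tested, nor is it stated that the control libraries received this oligonucleotide.

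Of the numbered siRNAs, the word AAGACCT from the first one stood in the 3′ UTR of *MRPL30*, *MRPS25* and *MRPS24*, 3 of 75, against 11.4% of all genes. With si025 the log2 fold change was -0.30 for *MRPL30*, -0.43 for *MRPS25* and -0.86 for *MRPS24*, and each was called lower. With si033 none of the 3 passed, at -0.07, -0.03 and -0.48. *MRPS24* rested on few reads and its count is uncertain, as given above. Of the 1376 genes with the word, 455 were called lower and 455 higher with si025, and 403 and 400 with si033. Over all genes with the word the median was 0.00 with each siRNA. The word AGTGGAA from the second one stood in 8 of the 75, against 1933 of the 12083 genes with a 3′ UTR. Of the 8, 7 were called lower and 1 higher with si025, and 3 lower and 1 higher with si033. Of the 1933 genes with the word, 559 were called lower and 693 higher with si025, and 572 and 539 with si033. Within the family, the median with si025 was -0.19 for the 8 genes with the word and -0.20 for the 67 without it. Read from the listed strands, TGCTTTC stood in 5 of the 75, against 21.0% of the genes with a 3′ UTR, with 1 lower and 1 higher with each siRNA. Of the 2542 genes with TGCTTTC, 840 were called lower and 787 higher with si025, and 744 and 761 with si033. In the family, the 1 gene called higher was *MRPL42* both for AGTGGAA and for TGCTTTC. Its 3′ UTR model held 4 copies of TGCTTTC, 2 of them inside the counted exons, and 1 of AGTGGAA outside them. CAATACG stood in 1, against 1.40%, and that gene passed with neither siRNA. The 3′ UTR of *MRPL30* also held the second word, AGTGGAA, at base 1673, inside the counted exons. The site of the first word in *MRPL30* is shown as an example.
MRPL30, base 3621 of the 3′ UTR: acttttctctcAAGACCTgagggaattaa

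Besides *MRPL36*, the genes highest over control with both siRNAs were *MRPL34*, *MRPL42* and *MRPS10*. *MRPL34*, the counterpart of bacterial L34, had 38.8, 36.2 and 36.0 CPM in control, 51.3, 58.0 and 56.1 with si025, and 51.7, 51.4 and 44.3 with si033. No siRNA library fell within the control range. Its log2 fold changes were 0.59 ± 0.07 (edgeR adjusted *p* = 6.74e-08) and 0.40 ± 0.07 (adjusted *p* = 2.94e-05). *MRPL42*, a mitochondria-specific large subunit protein, had 69.6, 64.7 and 71.6 CPM in control, 95.2, 101 and 102 with si025, and 84.7, 97.1 and 93.5 with si033. It rose by 0.53 ± 0.06 (adjusted *p* = 1.92e-08) and 0.42 ± 0.06 (adjusted *p* = 1.43e-06) by the same test.

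*MRPS10* encodes a small subunit protein that bacteria share. It had 39.5, 41.2 and 44.04 CPM in control, 48.9, 50.4 and 49.96 with si025, and 63.7, 67.4 and 57.3 with si033. The 3 groups did not overlap, and si033 was the highest. The log2 fold changes were 0.25 ± 0.06 (edgeR adjusted *p* = 0.00158) and 0.57 ± 0.06 (adjusted *p* = 6.17e-08), and the siRNAs differed by -0.32 ± 0.06 (adjusted *p* = 8.30e-05). The remaining genes called higher were *MRPL54*, *MRPL41*, *MRPL33* and *MRPL53* with si025, at 0.17 to 0.23, and *MRPL11*, *MRPL43* and *MRPS14* with si033, at 0.16 to 0.19.

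**Figure D3:**
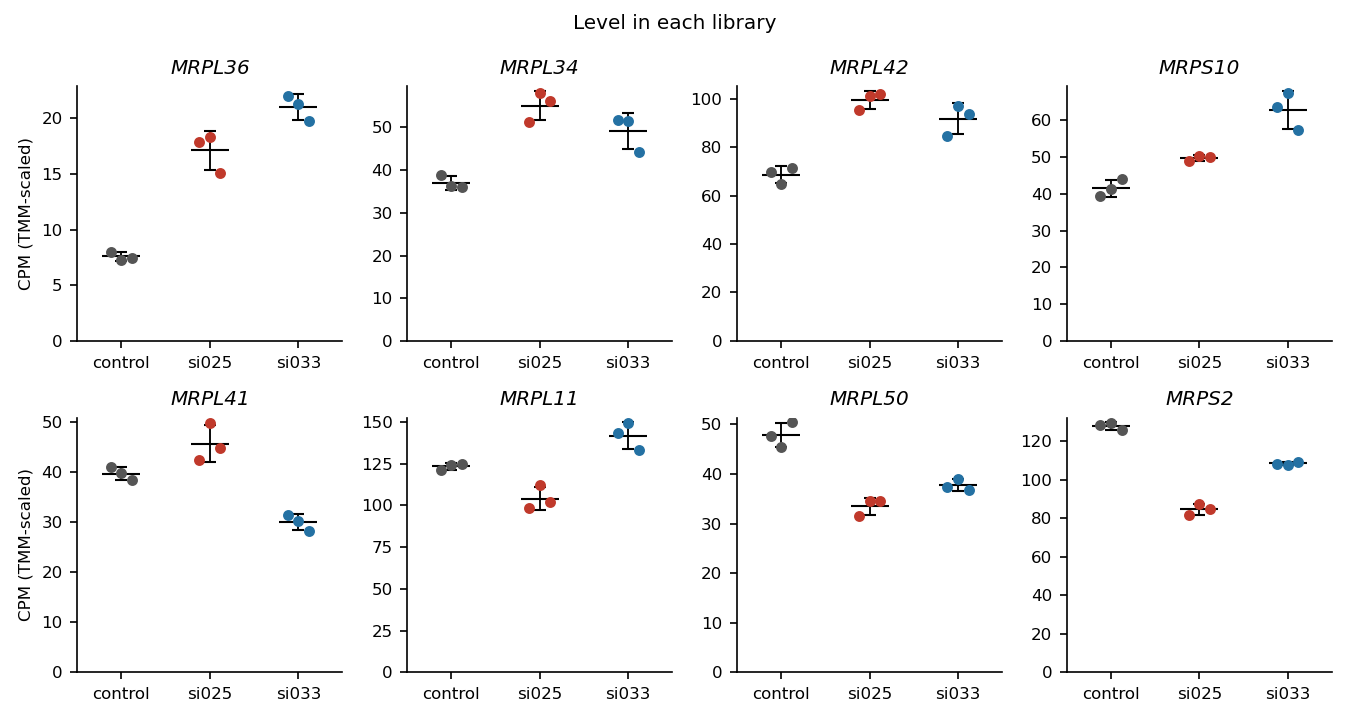
CPM of 8 genes in each library from an axis at 0; points are libraries, horizontal marks the mean and bars the SD (n = 3). *MRPL36*, *MRPL34*, *MRPL42* and *MRPS10* stand above control with each siRNA, *MRPL41* and *MRPL11* on opposite sides of it, and *MRPL50* and *MRPS2* below.

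Among the large subunit genes, 29 of 49 fell and 7 rose with si025, and 25 fell and 5 rose with si033. The lower shares were 59.2% and 51.0%, against 28.8% and 27.8% of all genes. Their medians were -0.19 and -0.13 on the log2 scale. *MRPL50*, a mitochondria-specific protein, had 47.7, 45.4 and 50.4 CPM in control. It had 31.5, 34.5 and 34.5 CPM with si025, and 37.3, 39.1 and 36.8 CPM with si033. Each siRNA group lay below control, with changes of -0.51 ± 0.06 (edgeR adjusted *p* = 1.06e-07) and -0.35 ± 0.06 (adjusted *p* = 2.51e-05).

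*MRPL4*, whose bacterial counterpart lines the exit tunnel of the nascent chain, had 50.4, 52.0 and 50.8 CPM in control. It had 35.1, 39.6 and 35.5 CPM with si025, and 38.2, 36.5 and 39.2 CPM with si033. The siRNA groups overlapped each other and lay below control, at -0.47 ± 0.06 (edgeR adjusted *p* = 2.93e-07) and -0.42 ± 0.06 (adjusted *p* = 2.14e-06). *MRPL2*, a core protein near the peptidyl transferase centre, fell by 0.38 ± 0.06 with si025 and by 0.36 ± 0.06 with si033 on the log2 scale. *MRPS30*, which carries a small subunit name but sits in the large subunit, fell by 0.34 ± 0.06 and 0.39 ± 0.06. Between the siRNAs *MRPL4*, *MRPL2* and *MRPS30* differed by -0.05 ± 0.06, -0.02 ± 0.07 and 0.05 ± 0.06, none of which passed the edgeR test.

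*MRPL37*, another mitochondria-specific protein, moved further with si025. It had 158, 166 and 159.7 CPM in control, 101, 114 and 107 with si025, and 146, 148 and 139 with si033. The 3 groups did not overlap. Its log2 fold changes were -0.58 ± 0.05 (edgeR adjusted *p* = 6.04e-10) and -0.16 ± 0.05 (adjusted *p* = 0.00775). The change with si033 missed the threshold without si033 library 3 (adjusted *p* = 0.0633) or control library 2 (adjusted *p* = 0.0554), or when scaled by library totals (adjusted *p* = 0.0607). The difference between siRNAs was -0.42 ± 0.05 (adjusted *p* = 1.28e-07). *MRPL19*, a counterpart of bacterial L19, went the other way, with 92.1, 103 and 97.6 CPM in control, 83.0, 83.4 and 89.2 with si025 and 66.2, 76.7 and 74.7 with si033. Its changes were -0.19 ± 0.06 (adjusted *p* = 0.00487) and -0.42 ± 0.06 (adjusted *p* = 1.47e-06). The difference was 0.23 ± 0.06 (adjusted *p* = 0.00141).

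The genes at the top of the level ranking also fell with si025. *MRPL51* fell by 0.35 ± 0.05, *MRPL12* by 0.35 ± 0.05, *MRPL3* by 0.24 ± 0.05 and *MRPL49* by 0.27 ± 0.05 on the log2 scale. With si033 the first 3 fell by 0.17 ± 0.05, 0.28 ± 0.05 and 0.13 ± 0.05, and *MRPL49* was at 0.10 ± 0.05, which did not pass (edgeR adjusted *p* = 0.0778). The si033 call of *MRPL51* was lost without si033 library 3 or control library 3 (adjusted *p* = 0.0516 and 0.0571). That of *MRPL3* was lost without si033 library 1 or 3 (adjusted *p* = 0.124 and 0.0634) or any 1 control library (adjusted *p* of 0.0559 to 0.0825), and under scaling by upper quartile (0.0649) or library totals (0.159). At the low end, *MRPL55* at -0.21 ± 0.13 and *MRPL23* at 0.14 ± 0.28 with si025 did not pass.

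Among the small subunit genes, 18 of 25 fell and 1 rose with si025, and 8 fell and 2 rose with si033. The lower share was 72.0% with si025, against 28.8% of all genes, and 32.0% with si033, near the 27.8% of all genes. Their medians were -0.22 and -0.10. *MRPS2*, which has a bacterial counterpart, had 129, 129.7 and 126 CPM in control, 81.8, 87.3 and 85.0 with si025, and 109, 108 and 109 with si033. The groups did not overlap, and si025 was the lowest. The log2 fold changes were -0.59 ± 0.05 (edgeR adjusted *p* = 1.09e-10) and -0.24 ± 0.04 (adjusted *p* = 1.10e-04).

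*MRPS17*, another protein shared with bacteria, had 36.1, 33.1 and 37.3 CPM in control, 23.3, 26.6 and 24.3 with si025, and 34.8, 31.6 and 30.2 with si033. The si033 libraries overlapped control, and the si025 libraries lay below both. It fell by 0.52 ± 0.07 with si025 (edgeR adjusted *p* = 9.78e-07) and stood at -0.16 ± 0.07 with si033 (adjusted *p* = 0.0523). *MRPS24* was lower with si025 at -0.86 ± 0.25 (adjusted *p* = 0.00409), from 1.83, 2.17 and 1.62 CPM to 0.934, 0.943 and 1.11 CPM. It stood at -0.48 ± 0.24 with si033 (adjusted *p* = 0.0912).

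*MRPS9*, the counterpart of bacterial S9, had 73.1, 72.9 and 74.2 CPM in control, 66.3, 64.9 and 65.8 with si025, and 53.3, 58.2 and 56.6 with si033. The 3 groups were apart, and si033 was the lowest. Its changes were -0.16 ± 0.05 (edgeR adjusted *p* = 0.00688, and 0.0525 when scaled by library totals) and -0.39 ± 0.05 (adjusted *p* = 8.69e-07). *MRPS36*, which despite its name belongs to the oxoglutarate dehydrogenase complex, had 10.2 to 16.7 CPM in control, 9.89 to 15.3 with si025 and 9.64 to 11.9 with si033, and passed in no comparison.

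Sorted by origin, the 47 genes with a bacterial counterpart had 29 called lower and 4 higher with si025, and 21 lower and 5 higher with si033. The 27 mitochondria-specific genes had 18 lower and 4 higher, then 12 lower and 2 higher. The lower shares were 61.7% and 44.7% in the first class and 66.7% and 44.4% in the second, where 28.8% and 27.8% of all genes were lower. Their medians were -0.19 and -0.13 for the first class and -0.22 and -0.10 for the second. Among the 9 mitochondria-specific small subunit genes, 8 fell with si025 and 3 with si033, and none was called higher. The 33.3% that fell with si033 is near the share of all genes. No difference between these classes was tested.

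Set against each other, the siRNAs differed for 34 of the 75 genes, 27 of them lower and 7 higher with si025. Of all genes, 60.9% differed, 29.7% as lower and 31.2% as higher. With offsets for length and GC content, all genes split into 4986 lower and 3627 higher, and the family into 33 lower and 12 higher. The median of the 75 was -0.08, against 0.00 over all genes. The groups did not overlap for 30 genes that were lower with si025 and 5 that were higher, where 30.4% and 32.2% of all genes were.

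*MRPL41* and *MRPL11* were called in opposite directions with the siRNAs. *MRPL41*, a mitochondria-specific protein also known to bind BCL2, had 41.0, 39.9 and 38.4 CPM in control. It had 42.6, 49.9 and 44.8 CPM with si025, and 31.6, 30.3 and 28.3 CPM with si033. The groups did not overlap, with si025 above control and si033 below. The changes were 0.22 ± 0.06 (edgeR adjusted *p* = 0.00528) and -0.41 ± 0.07 (adjusted *p* = 1.85e-05), and the difference of 0.63 ± 0.07 (adjusted *p* = 2.00e-08) was the widest of the 75. Without the second si025 library, the rise of *MRPL41* missed the threshold (adjusted *p* = 0.0501).

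*MRPL11*, which forms the base of the stalk where elongation factors dock, had 121, 124 and 125 CPM in control. It had 98.4, 112 and 102 CPM with si025, and 143, 149 and 133 CPM with si033. Here si025 was below control and si033 above. The changes were -0.24 ± 0.05 (edgeR adjusted *p* = 4.18e-04) and 0.19 ± 0.05 (adjusted *p* = 0.00382), and the difference was -0.44 ± 0.05 (adjusted *p* = 2.27e-07).

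*MRPS25* and *MRPS31*, both mitochondria-specific small subunit genes, were lower with si025 than with si033. *MRPS25* had 206, 201 and 212 CPM in control, 154, 155 and 152 with si025, and 217, 179 and 212 with si033, a difference between siRNAs of -0.40 ± 0.05 (edgeR adjusted *p* = 1.04e-06). *MRPS31* had 18.3, 19.1 and 20.1 CPM in control, 15.5, 13.3 and 13.9 with si025, and 21.3, 18.4 and 16.8 with si033, a difference of -0.39 ± 0.09 (adjusted *p* = 6.46e-04). In each, the si033 libraries overlapped control and the si025 libraries did not. *MRPL49*, next to the ribosomal protein gene *FAU*, differed by -0.38 ± 0.05. *MRPL54* and *MRPL33*, both called higher with si025, differed by 0.33 ± 0.09 and 0.21 ± 0.07. Each rested on small margins. *MRPL54* missed the threshold against control without the second si025 library (adjusted *p* = 0.0984) or the second control library (adjusted *p* = 0.0901). *MRPL33* missed it without si025 library 2 or 3 (adjusted *p* = 0.115 and 0.0603) or the second control library (adjusted *p* = 0.195), and its difference between siRNAs missed it without si025 library 2 or si033 library 3 (adjusted *p* = 0.0709 and 0.0629). With the second si025 library left out, the genes called higher with si025 numbered 4 in place of 8 against control, and 4 in place of 7 against si033. Leaving out si033 library 3 also left 4 in place of 7.

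The genes around the mitochondrial ribosome were read from lists by role. Their counts are to be set against the 28.8% lower and 32.9% higher of all genes with si025, and the 27.8% and 26.9% with si033. Of 5 ribosomal proteins that carry other symbols, 4 fell and none rose with si025, and 2 fell with si033. *PTCD3*, a small subunit protein with pentatricopeptide repeats, fell by 0.31 ± 0.04 and 0.23 ± 0.04 on the log2 scale. *GADD45GIP1*, a large subunit protein, was at -0.31 ± 0.07 and -0.12 ± 0.07, and *AURKAIP1*, a small subunit protein, at -0.24 ± 0.05 and 0.08 ± 0.05. The second value of each of these did not pass the edgeR test.

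Of 25 assembly factors tested, 15 fell and 2 rose with si025, and 7 fell and 1 rose with si033, with medians of -0.18 and -0.03. The lower share was 60.0% with si025, and the 7 of 25 with si033 are near the 27.8% of all genes. *MTERF4*, which targets an rRNA methyltransferase to the large subunit, rose by 0.63 ± 0.05 and 0.19 ± 0.05. *DDX28*, a helicase of large subunit assembly, was at -0.54 ± 0.09 and -0.21 ± 0.09, and *RBFA*, a factor for small subunit maturation, at -0.45 ± 0.07 and 0.04 ± 0.07. Both fell with si025 and passed with si033 in neither case.

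Of 17 translation factors, 11 fell and 2 rose with si025, and 6 fell and 1 rose with si033. The lower shares were 64.7% and 35.3%, and the medians -0.20 and -0.07. *GFM1*, the elongation factor for translocation, fell by 0.41 ± 0.05 and 0.42 ± 0.05. *TUFM*, the elongation factor that delivers tRNA, was at -0.42 ± 0.05 and -0.08 ± 0.05, and *MTRF1L*, a release factor, at 0.49 ± 0.08 and 0.00 ± 0.08. The second value of *TUFM* and of *MTRF1L* did not pass. Of 19 mitochondrial tRNA synthetases, 11 fell and 3 rose with si025, and 6 fell and 3 rose with si033, lower shares of 57.9% and 31.6%. *AARS2*, for alanine, was at -1.06 ± 0.05 and -0.07 ± 0.05, the second not passing. *MARS2*, for methionine, fell by 0.39 ± 0.07 and 0.78 ± 0.08, and *LARS2*, for leucine, by 0.21 ± 0.05 and 0.64 ± 0.05.

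Of 16 genes for transcription, processing and maintenance of mitochondrial DNA, 10 fell and none rose with si025, and 2 fell and 1 rose with si033. The lower shares were 62.5% and 12.5%, and the medians -0.20 and -0.01. *TFAM*, which packages mitochondrial DNA, fell by 0.35 ± 0.05 and 0.38 ± 0.05. *POLRMT*, the mitochondrial RNA polymerase, was at -0.36 ± 0.06 and -0.04 ± 0.06, and *C10orf2*, the helicase also called Twinkle, at -0.42 ± 0.05 and -0.07 ± 0.05, both passing with si025 alone. Of 9 nuclear regulators of mitochondrial genes, 5 fell and 1 rose with si025, and 5 fell and 3 rose with si033. *MYC* fell by 0.78 ± 0.04 and 0.52 ± 0.04, and *PPRC1*, a coactivator, by 0.41 ± 0.05 and 0.22 ± 0.05. *PPARGC1A*, another coactivator, rose by 1.46 ± 0.23 and 0.78 ± 0.26 from 1.31 ± 0.227 CPM (SD, n = 3) in control. The 13 mitochondrial mRNAs were not analysed here.

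Few cytosolic ribosomal protein and oxidative phosphorylation genes were called lower with si033. Of 77 cytosolic ribosomal protein genes, 23 fell and 2 rose with si025, with a median of -0.06, whereas 5 fell and 18 rose with si033, with a median of 0.06. Of 75 nuclear oxidative phosphorylation genes, 28 fell and 5 rose with si025, with a median of -0.09, and 5 fell and 18 rose with si033, with a median of 0.02. With si025 the lower shares of these lists were 29.9%, near the 28.8% of all genes, and 37.3%. Their higher shares with si025 were 2.60% and 6.67%, against 32.9% of all genes. With si033 the lower shares of these lists were 6.49% and 6.67%, against 27.8% of all genes. Their higher shares with si033 were 23.4% and 24.0%, slightly under the 26.9% of all genes. The mitochondrial ribosomal protein genes had medians of -0.20 and -0.13. No test between these lists was made. Single genes departed from their lists: *RPL9* was at -2.61 ± 0.07 with si025 and 0.63 ± 0.06 with si033, *RPL17* at -0.26 ± 0.05 and -0.74 ± 0.05, and *RPS2* at -0.59 ± 0.05 and -0.02 ± 0.05. Of the oxidative phosphorylation genes, *UQCR10* was at 0.56 ± 0.05 and 0.73 ± 0.05, and *UQCRB* at 0.04 ± 0.05 and -0.70 ± 0.05, both of them subunits of the cytochrome bc1 complex.

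**Figure D4:**
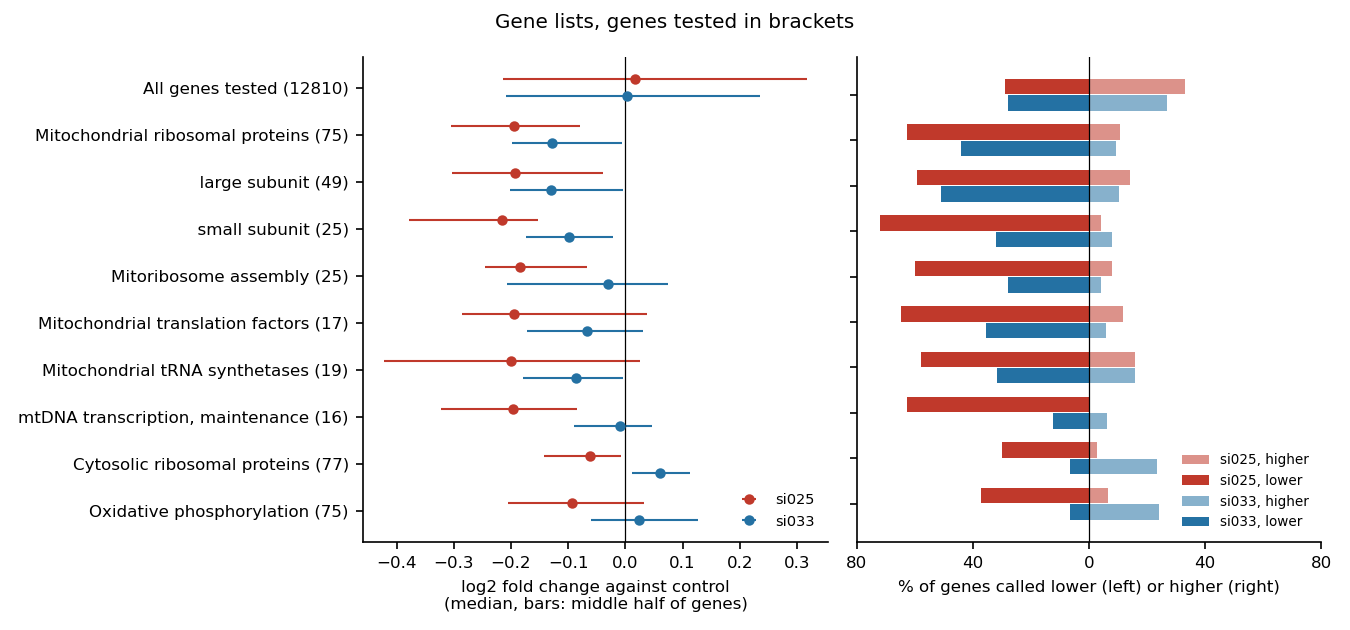
Left, median log2 fold change against control of each gene list (points) with the range of its middle 50% of genes (bars), red for si025 and blue for si033. Right, percent of each list called lower or higher. The median of the mitochondrial ribosomal protein genes lies below 0 with each siRNA. The medians of the cytosolic ribosomal and oxidative phosphorylation lists lie below 0 with si025 and above it with si033. The bars of the oxidative phosphorylation list cross 0 with each siRNA.

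Many mitochondrial ribosomal protein genes start beside another gene that is read in the opposite direction. Of the 75 tested, 29 (38.7%) had such a head-to-head neighbour whose start lay within 1000 bases by the outermost exons of the count tables, against 17.6% of all genes tested. *MRPL46* and *MRPS11* were each other's neighbour, 51 bases apart, and neither passed in any comparison. Counting was by strand, so overlapping neighbours did not share reads. Of 28 pairs tested, both genes were called in 11 with si025, and 6 of these moved in 1 direction and 5 in opposite ones. With si033 both were called in 8, and 4 of these moved in 1 direction. Pairs of genes outside the family were not counted, so these counts have no background to be set against.

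The neighbour of *MRPL36* is *NDUFS6*, a subunit of complex I, whose outermost exons overlap it by 50 bases. *NDUFS6* had 68.7, 64.2 and 67.5 CPM in control, 61.0, 72.6 and 63.0 with si025, and 47.0, 45.3 and 42.7 with si033. It did not pass with si025, at -0.02 ± 0.06 (edgeR adjusted *p* = 0.767), and fell with si033, by 0.58 ± 0.06 (adjusted *p* = 7.68e-08). In the pair *MRPL34* and *ABHD8*, the latter rose as well, by 0.75 ± 0.13 and 0.47 ± 0.13, from 5.35 ± 0.693 CPM (SD, n = 3) in control. In the pair *MRPL50* and *ZNF189*, 193 bases apart, the zinc finger gene rose by 0.80 ± 0.06 and 0.27 ± 0.06 where *MRPL50* fell.

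*MRPL51* and *NCAPD2*, which encodes a condensin subunit, both fell, the latter by 0.87 ± 0.05 and 0.53 ± 0.05. *FAU*, beside *MRPL49*, was at -0.18 ± 0.04 and 0.11 ± 0.04, both passing. *KLC4*, beside *MRPL2*, was at 0.12 ± 0.09, which did not pass, and rose by 0.30 ± 0.09 with si033. The neighbours of *MRPL37*, *MRPS2* and *MRPL54*, which are *CYB5RL*, *C9orf116* and *APBA3*, passed against control with neither siRNA.

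**Figure D5:**
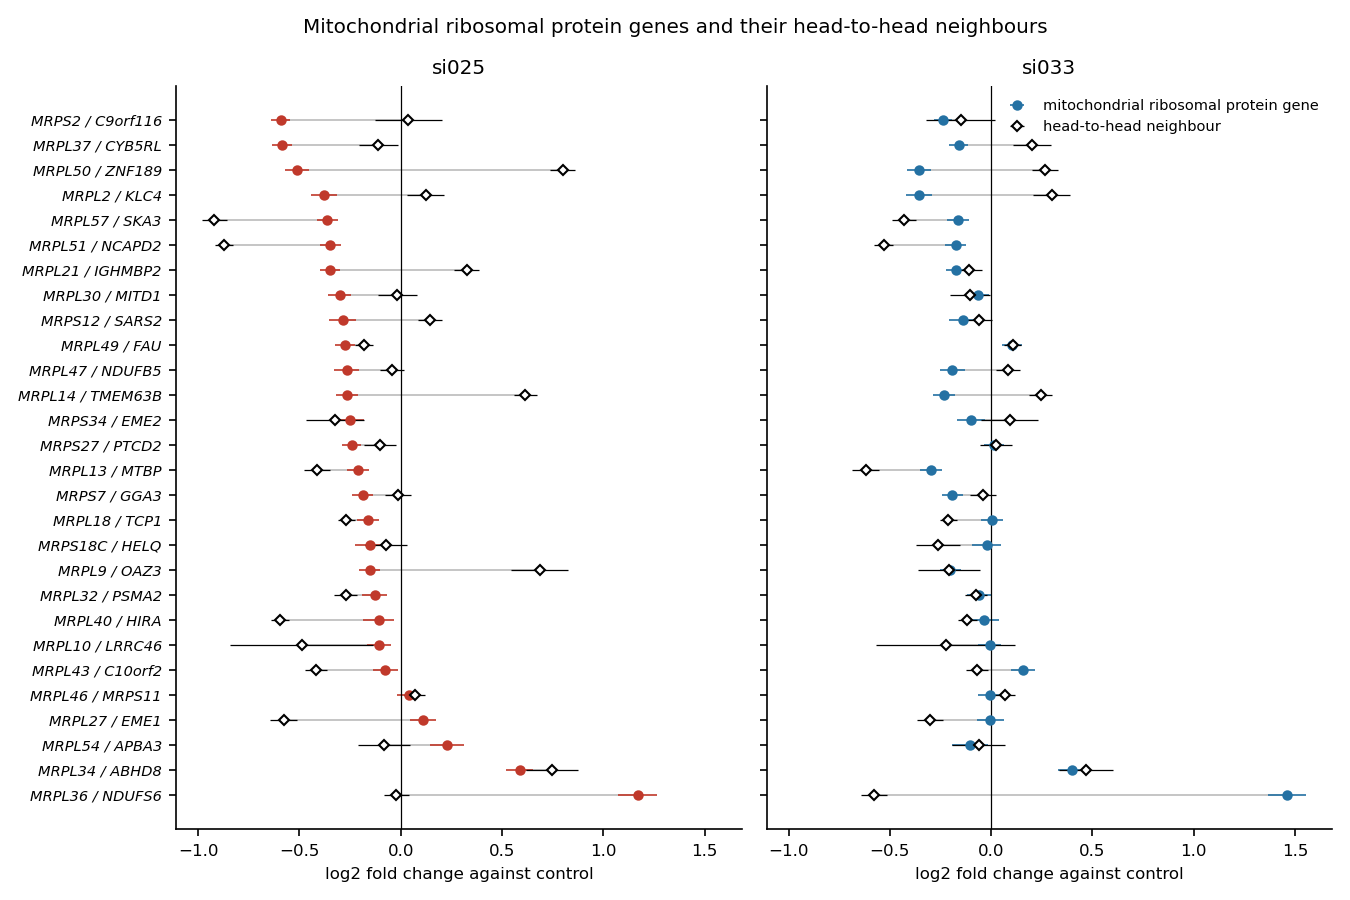
Log2 fold change against control of 28 pairs of a mitochondrial ribosomal protein gene (filled circles) and its head-to-head neighbour (open diamonds), si025 left and si033 right, with bars of 1 standard error. *MRPL36* and *NDUFS6* are far apart, *MRPL34* and *ABHD8* are both right of 0, and *MRPL50* and *ZNF189* lie on opposite sides of 0.

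Promoters of the family were searched for the cores of factors known to act on nuclear genes for mitochondria. RefSeq promoters (GRCh38.p14, 250 bases before the start to 50 after) matched 66 of the 75 genes by symbol. Both strands were searched. The core of ETS factors, CCGGAAG, stood in 43.9% of the 66, in 19.3% of the 9911 tested genes with a promoter and in 10.9% of all 27305 promoters. The core of YY1, AAGATGGCG, stood in 18.2%, 4.26% and 1.96%. The NRF1 core GCGCATGCG stood in 4.55%, 3.70% and 2.14%, and the E-box CACGTG in 6.06%, 9.94% and 7.45%. In none of the 66 promoters did matches of different motifs share bases. A match says only that the letters stand in this window. Of genes for the factors themselves, *GABPA*, an ETS factor, fell by 0.36 ± 0.07 and 0.22 ± 0.07, and *NRF1* by 0.32 ± 0.07 and 0.20 ± 0.07. *YY1* fell by 0.18 ± 0.05 with si025 and rose by 0.25 ± 0.05 with si033.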

How the data were processed

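The authors aligned reads to hg38 with HISAT2 2.1.0 and counted reads per gene with featureCounts 1.5.2, per the labels and the file headers. The deposited values are raw counts of read pairs over exons of a RefSeq annotation, read by strand; the study's methods instead name GENCODE for this experiment, and the header was followed. The labels name a Promega RNA kit and a stranded total RNA library kit. Genes were tested with edgeR 4.0.16 (R 4.3.3): the package's low-count filter, TMM scaling, 1 mean per group over all 9 libraries, the quasi-likelihood test and Benjamini-Hochberg adjustment over 12810 genes, with calls at 0.05. The biological coefficient of variation was 4.13%. CPM and RPKM use TMM-scaled totals and exon length in the file. The script was tested on simulated data. DESeq2 1.42.0 was an alternative. The family and the lists were chosen with earlier results of these data known. *MRPL36* was singled out beforehand as a gene that goes against the rest. Named genes were, per comparison, the 5 largest rises and 5 largest falls among called members, up to 4 per direction called with both siRNAs or in opposite directions, the 4 highest and lowest levels, seed matches, head-to-head neighbours of these, and 3 genes per list; *MRPS36*, *MRPL30*, *MRPL43*, *MRPL53*, *MRPS14*, *MRPS6*, *MRPL46*, *MRPS11*, *GABPA*, *NRF1* and *YY1* fall outside it and were named after their values were seen. Same-numbered replicates did not deviate together (correlations -0.0214 to 0.0729), so replicate numbers were not used as a block in the reported fit. Some items are not reported here.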

Additional observations from a re-analysis of the deposited data

Results flagged for a closer look

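The siRNAs differed from each other, by edgeR's quasi-likelihood test of si025 against si033, for 18 of the mitochondrial ribosomal protein genes chosen by the naming rule. That rule took in the largest called differences of this same comparison, so the 18 are no measure of the family. Of the whole family, 34 of 75 genes (45.3%) differed, against 60.9% of all genes tested. The values below are differences in log2 level, si025 minus si033. Higher with si025 were *MRPL41* by 0.63, *MRPL54* by 0.33, *MRPL19* by 0.23, *MRPS9* by 0.23, *MRPL33* by 0.21 and *MRPL34* by 0.19. Lower with si025 were *MRPL11* at -0.44, *MRPL37* at -0.42, *MRPS25* at -0.40, *MRPS31* at -0.39, *MRPL49* at -0.38, *MRPS17* at -0.36 and *MRPS2* at -0.36. Also lower were *MRPS10* at -0.32, *MRPL36* at -0.29, *MRPL51* at -0.17, *MRPL50* at -0.16 and *MRPL3* at -0.12. Of the genes named outside that rule, *MRPS6* at -0.27, *MRPL30* at -0.24, *MRPL43* at -0.23 and *MRPS14* at -0.17 also differed. With 3 libraries per group, no library was left out of the reported fit as an outlier. Over all genes, si025 library 2 stood apart from its group, as given above. Without 1 library, the difference missed the threshold for *MRPL34* (si025 library 2 or si033 library 3, edgeR adjusted p = 0.0592 and 0.214) and for *MRPL50* (si025 library 1 or si033 library 2, adjusted p = 0.114 and 0.0861). For *MRPL3* it did so without si025 library 1 or 3 or si033 library 2 or 3 (adjusted p of 0.0752 to 0.199), and in a fit of the 2 groups alone (0.0577). For *MRPL36* it did so without si025 library 3 (adjusted p = 0.0612), and for *MRPL33* without si025 library 2 or si033 library 3 (adjusted p = 0.0709 and 0.0629). With offsets for length and GC content, *MRPL50* and *MRPL51* missed it (adjusted p = 0.348 and 0.242).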

How the results depend on the processing

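Over 19 alternatives, 9 of which left out 1 library each, 46 of 59 calls on named genes kept their direction and their side of the threshold in every one. The other 13 missed the threshold in at least 1 and none changed direction. These 59 calls were on genes chosen mostly for large called changes, so they do not describe the whole family. Without 1 library, the called genes numbered 50 to 58 of 75 for si025 against control (4 to 8 higher, 44 to 54 lower), 32 to 42 for si033 (5 to 8 higher, 24 to 35 lower) and 28 to 37 between the siRNAs (4 to 8 higher, 22 to 32 lower). The medians then ran from -0.23 to -0.18, from -0.14 to -0.10 and from -0.13 to -0.06. Scaling by library totals alone moved the si033 median to -0.073 and that of all genes to 0.06. With GC content and length as offsets, there were 12 genes higher between the siRNAs in place of 7, and again 12 when a replicate block was added. The replicate block alone gave 56 called genes for si025 and 40 for si033 against control, and 37 between the siRNAs. Under DESeq2, *MRPL54* missed the threshold with si025 (adjusted p = 0.0898). The negative control word was held by 7 genes in the whole transcript, by 8 as a 6-base match, and by 1 within the counted exons, an alternative chosen after seeing the data. Causes were not tested. Low counts limit *MRPS24* and *MRPL23*, and *MRPS18B* and *MRPL45* could not be tested.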
